A study of Mus musculus with 8 samples.

Results

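RNA sequencing of the mouse retina at postnatal day 8 (P8) was compared between cells with Cd73 on their surface (Cd73PC) and cells without it (Cd73NC). Both fractions were sorted by flow cytometry from pooled, dissociated retinas of mice of the ICR background, and the labels name no genetic change or drug treatment. Genes were joined between both tables by identifier and locus, small RNAs were left out, and a gene was kept when it reached 1 FPKM (fragments mapped per kilobase of transcript, scaled to the library's mapped total) in at least 1 fraction. This left 12365 of the 21830 genes in the tables. The series holds 8 libraries in all: whole retinas at embryonic days 15 and 18 (E15, E18), and both fractions at P2, P5, and P8. Each condition had 1 library, so no replicate error exists, no test was run, and every difference given here is between 2 libraries. Both fractions of a stage came from the same retinas, and the study states that the sort was done fast at a cost in purity, so each fraction can hold cells of the other.

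Cd73 is a 5′-nucleotidase on the cell surface, encoded by Nt5e, which makes adenosine from AMP and marks rod precursors and rods in the retina. In rods, light leads transducin to activate a phosphodiesterase, and the fall in cGMP closes a cation channel of the outer segment, a modified cilium. Cones use a related set of proteins. The remaining cells of the postnatal retina include bipolar cells, which receive the photoreceptors' glutamate, amacrine, horizontal, and ganglion cells, Müller glia, and, early on, progenitors. In the mouse, bipolar cells and Müller glia are among the last cells to form.

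At P8, 1612 of 12365 genes (13.0%) were higher in Cd73PC and 3874 (31.3%) were higher in Cd73NC by more than 1.5-fold on FPKM + 1, and 6879 passed the fold in neither direction. The genes higher in Cd73PC were fewer, but their median level in their own fraction was 22.1 FPKM, against 10.5 FPKM for the genes higher in Cd73NC. They held 34.1% of the summed FPKM of Cd73PC, and the genes higher in Cd73NC held 35.0% of that of Cd73NC. Past 2-fold the counts were 888 (7.18%) and 2363 (19.1%), which leaned the same way as at 1.5-fold. The largest ratios leaned the other way: of the 12365 genes, 77 were higher in Cd73PC by more than 8-fold and 40 in Cd73NC. Adding 1 to FPKM limits the ratio of weakly expressed genes, and genes higher in Cd73NC had the lower median level. The lean past 8-fold can therefore depend on level. The median log2 ratio of Cd73PC over Cd73NC was -0.23, with quartiles of -0.78 and 0.20, so the middle gene was lower in Cd73PC. The split between the directions depended on the scaling: 2343 genes were higher in Cd73PC and 3127 in Cd73NC when the median ratio was set to 1, and 2601 and 2647 after quantile normalization. Ratios below are therefore to be read against -0.23, and counts of list members against 13.0% towards Cd73PC and 31.3% towards Cd73NC. Calls towards Cd73NC that lie close to the fold can end with the scaling.

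**Figure D1:**
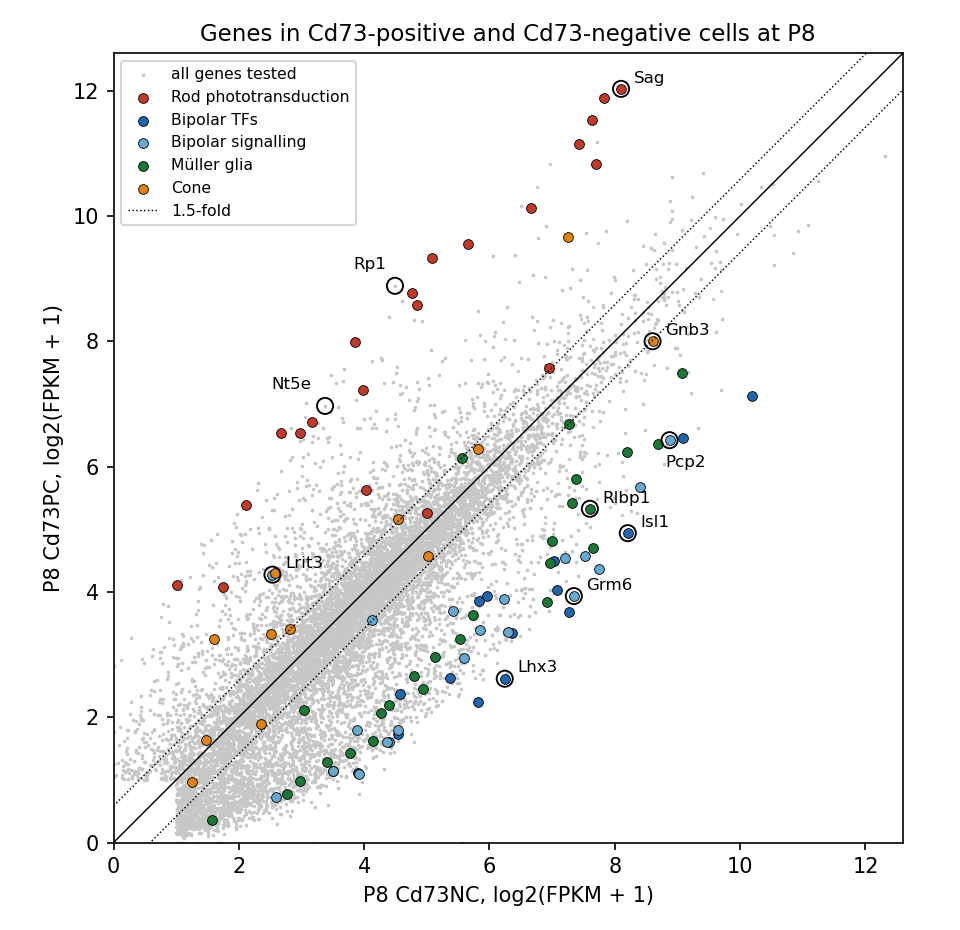
Level of the 12365 genes in Cd73NC (x axis) and Cd73PC (y axis) at P8, both as log2(FPKM + 1), 1 library each; colours mark gene lists, open circles mark named genes, and dotted lines mark 1.5-fold. Rod phototransduction genes lie above the diagonal, up to Sag at 4174 FPKM in Cd73PC, bipolar and Müller glia genes lie mostly below it, and cone genes lie on both sides.

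The sort could be read in its own antigen. Nt5e (chr9:88222447-88266927 in mm9, plus strand) was at 124 FPKM in Cd73PC and 9.38 FPKM in Cd73NC at P8, a log2 ratio of 3.59, so the negative fraction held 7.55% of the level of the positive one. In whole retina Nt5e was at 0.447 FPKM at E15 and 2.76 FPKM at E18. Sag, or arrestin of the rod (chr1:89700255-89741732, plus strand), was at 4174 FPKM in Cd73PC and 273 FPKM in Cd73NC. Pcp2, a modulator of G-protein signalling found in bipolar cells (chr8:3623371-3625545, minus strand), was at 84.7 and 468 FPKM. Isl1, a homeobox factor of ON bipolar cells, some amacrine cells, and ganglion cells (chr13:117088478-117099896, minus strand), was at 29.6 and 294 FPKM. The labels of both fractions thus held for the antigen, the rod gene, and both genes of the negative side. In bulk RNA, fewer cells of a type and less RNA per cell cannot be told apart.

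Genes around the antigen were divided. Among 11 genes of adenosine handling found in the tables, 6 reached 1 FPKM. Of these, 3, the antigen included, were higher in Cd73PC and 2 in Cd73NC, beside 13.0% and 31.3% of all genes. The nucleoside transporters Slc29a1 (11.96 and 6.67 FPKM in Cd73PC and Cd73NC) and Slc29a2 (16.2 and 4.93 FPKM) were higher in Cd73PC with Nt5e. Entpd2, an ectonucleotidase that hydrolyses ATP, was at 1.32 FPKM in Cd73PC and 10.6 FPKM in Cd73NC. Adk, adenosine kinase, was nearly level at 10.96 and 10.57 FPKM.

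Because the phototransduction genes moved together, their promoters were searched for TAATCC, the core bound by the photoreceptor homeobox factors Crx and Otx2, on either strand (GGATTA on the printed strand). RefSeq promoters (GRCm38.p6, 250 bases before to 50 after the start) were at hand for 14 of the 21 rod phototransduction genes. Gnat1, Pde6a, Pde6g, Rcvrn, Guca1b, and Rgs9bp were among those with no entry. TAATCC was found in 8 of the 14, in 10 windows that lay 6 to 228 bases before the start, and each window is given here 5′ to 3′ on the gene's strand with the match in capitals.
Cnga1, chr5:72642965-72642990: tgtctcatttTAATCCtaatgataaa
Cngb1, chr8:95306595-95306620: tagtgccaatTAATCCtggctgggtc
Cngb1, chr8:95306628-95306653: ctgcacatgcTAATCCtttgcacccg
Gnb5, chr9:75306272-75306297: cagataaaagGGATTAggtgaccaat
Gngt1, chr6:3993954-3993979: atattaggggGGATTAtgaagaagct
Guca1a, chr17:47400648-47400673: tgttaagaagGGATTAgcagactgca
Gucy2e, chr11:69237049-69237074: cggcttggagGGATTAagggctgcag
Gucy2f, chrX:142196980-142197005: ctctaaatccTAATCCaggtcttggt
Gucy2f, chrX:142197005-142197030: tcaatttaaaGGATTAcaagtgtcac
Sag, chr1:87803583-87803608: aagaggtttaGGATTAaaaaaaaaaa
Cnga1, Cngb1, Gngt1, Gucy2e, Gucy2f, and Sag of this set were among the genes far higher in Cd73PC, whereas Gnb5 and Guca1a, which carry the same letters, had the smallest ratios of the pathway. TAATCC was in 7.06% of all 32851 promoters of the table, in 26.9% of 26 promoters of outer segment genes (21 of 26 genes matched), and in 16.7% of 24 promoters of bipolar signalling genes (17 of 20 genes matched), the latter higher in the opposite fraction. A match is a description of these letters and not of binding.

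All 21 rod phototransduction genes of the list reached 1 FPKM, and 20 were higher in Cd73PC with none higher in Cd73NC, beside 13.0% of all genes. Their median log2 ratio was 3.55. For transducin, the α subunit Gnat1 was at 380 FPKM in Cd73PC and 27.8 FPKM in Cd73NC, the β subunit Gnb1 at 1809 and 207 FPKM, and the γ subunit Gngt1 at 753 and 49.6 FPKM. The chains of the holoenzyme therefore stood at unequal levels within Cd73PC, with Gnb1 above both partners. Of the phosphodiesterase, the catalytic subunit Pde6b was at 640 and 32.8 FPKM, the catalytic subunit Pde6a at 91.6 and 5.39 FPKM, and the inhibitory subunit Pde6g at 2269 and 171 FPKM. Pde6b had the largest ratio of the pathway, 4.24.

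The channel and the shut-off proteins gave ratios in the same range with a few exceptions. The cGMP-gated channel subunits Cnga1 (253 and 13.4 FPKM in Cd73PC and Cd73NC) and Cngb1 (436 and 26.2 FPKM, summed over its 2 loci) had log2 ratios of 4.14 and 4.01. The exchanger Slc24a1 was at 41.0 and 3.31 FPKM, and the kinase Grk1 at 91.5 and 6.89 FPKM. Recoverin, Rcvrn, which restrains that kinase, was at 1119 and 100.3 FPKM. Phosducin, Pdc, which binds the βγ subunits, was at 2964 and 198 FPKM. The GTPase-accelerating complex was uneven: Rgs9 was at 148 and 14.7 FPKM (3.24), its anchor Rgs9bp at 48.5 and 15.4 FPKM (1.59), and its partner Gnb5 at 189 and 123 FPKM (0.62). Gnb5 and Rgs9bp are used by other neurons of the retina too. The guanylate cyclase activators split, with Guca1b at 15.99 and 2.37 FPKM, but Guca1a at 37.5 and 31.1 FPKM, a log2 ratio of 0.26 that did not pass the fold.

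Outer segment and cilium genes followed. Of 26 genes of outer segment structure, retinoid handling, and photoreceptor maintenance, 25 were higher in Cd73PC, with a median log2 ratio of 3.23. Rp1, a microtubule protein of the axoneme (chr1:4280927-4399322, minus strand), had the largest ratio of all genes that reached 10 FPKM, at 472 and 21.5 FPKM (4.39). The disc rim proteins Prph2 (1811 and 125 FPKM) and Rom1 (2308 and 210 FPKM), and the retinol dehydrogenase Rdh12 (336 and 20.04 FPKM) lay close behind. Unc119, a carrier of lipidated proteins that many cells make, was at 1570 and 480 FPKM (1.71), and Crb1, an apical polarity protein shared with Müller glia, at 56.8 and 21.1 FPKM (1.39). Rp2h was the exception, at 5.32 and 7.12 FPKM.

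Of 35 cilium genes, 34 reached 1 FPKM, 25 were higher in Cd73PC, and none was higher in Cd73NC, with a median log2 ratio of 1.28. Within this list the components of the BBSome, the coat complex that sorts ciliary membrane proteins, had ratios above the median: Bbs5 was at 38.7 and 4.76 FPKM (2.78), Bbs9 at 74.4 and 14.3 FPKM (2.30), and Ttc8 at 68.6 and 14.0 FPKM (2.21), while Bbs1, Bbs2, Bbs7, and Bbs4 had log2 ratios of 1.57, 1.40, 1.46, and 1.32. Arl6, the small GTPase that recruits the BBSome, was at 154 and 24.3 FPKM (2.61). Intraflagellar transport genes were less uniform. Ift122 was at 33.6 and 8.19 FPKM (1.91) and Ift80 at 17.9 and 5.05 FPKM (1.64), while Ift20 (35.7 and 37.5 FPKM), Ift52 (17.3 and 18.1 FPKM), Ift140 (6.37 and 7.98 FPKM), and the motor subunit Kif3a (11.7 and 12.9 FPKM) were level or slightly lower in Cd73PC. The ciliary genes thus differed by much less than the phototransduction genes.

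Of 16 photoreceptor transcription factor genes at or above 1 FPKM (of 17 in the tables), 12 were higher in Cd73PC and 3 in Cd73NC. Over all genes these shares were 13.0% and 31.3%. The rod determinant Nrl was at 1417 FPKM in Cd73PC and 107 FPKM in Cd73NC (3.71), and its target Nr2e3, which represses cone genes, at 1140 and 89.8 FPKM (3.65). Crx, needed in rods and cones, was at 966 and 293 FPKM (1.72), and Neurod1 at 568 and 158 FPKM (1.84). Otx2, which acts upstream in photoreceptors and also in bipolar cells, was at 353 and 552 FPKM (-0.64), and Nr1d1 and Sall3 were also higher in Cd73NC (-0.76 and -0.65). These 3 calls fell within 1.5-fold when the median ratio was set to 1. The ratios thus ran from 3.71 for the rod-restricted Nrl to below 0 for Otx2.

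Photoreceptor synapse genes were divided, with 14 of 24 higher in Cd73PC and 2 in Cd73NC, beside 13.0% and 31.3% of all genes. Large ratios were found for Egflam (pikachurin, 208 and 18.4 FPKM, 3.42), Elfn1, the rod adhesion protein for bipolar dendrites (59.9 and 5.38 FPKM, 3.25), Cplx4 (108 and 11.6 FPKM, 3.12), and Cabp4, which tunes the presynaptic calcium channel (31.2 and 3.55 FPKM, 2.83). The vesicular glutamate transporter Slc17a7 was at 505 and 174 FPKM (1.53). Genes of release machinery common to many synapses varied. The vesicle protein Sv2b was at 157 and 66.9 FPKM (1.22) and the syntaxin Stx3 at 209 and 96.8 FPKM (1.10). Others were within the fold: Pclo was at 10.2 FPKM in both, Syt1 at 180 and 199 FPKM, Rims2 at 11.4 and 13.8 FPKM, and Bsn at 4.01 and 6.43 FPKM (-0.57). Cplx3, of cones, rod bipolar cells, and amacrine cells, was at 132 and 238 FPKM (-0.85), and Rims1 at 0.252 and 2.16 FPKM (-1.34).

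Cone genes lay on both sides. Of 12 members, 6 were higher in Cd73PC and 1 in Cd73NC, beside 13.0% and 31.3% of all genes, and the median log2 ratio was 0.53. The counts became 7 and 0 when the median ratio was set to 1. Gngt2, the γ subunit of cone transducin, was at 812 FPKM in Cd73PC and 152 FPKM in Cd73NC (2.41). Its partners did not share that ratio: Gnat2 was at 22.8 and 31.6 FPKM, and Gnb3, which ON bipolar cells also use, at 255 and 388 FPKM (-0.60, a call that ended when the median ratio was set to 1). The opsin Opn1sw was at 76.5 and 55.2 FPKM and Opn1mw at 2.72 and 4.10 FPKM. Cone arrestin Arr3 was at 9.66 and 6.07 FPKM, and Pde6c at 0.945 and 1.38 FPKM. Thrb (18.7 and 4.94 FPKM) and Rxrg (8.48 and 2.06 FPKM) passed 2-fold towards Cd73PC with Gngt2, while Cngb3 (9.09 and 4.69 FPKM, 0.83), Pde6h (34.8 and 22.2 FPKM, 0.62), and Arr3 (0.59) passed 1.5-fold only. No cone gene reached the median ratio of the rod phototransduction list.

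**Figure D2:**
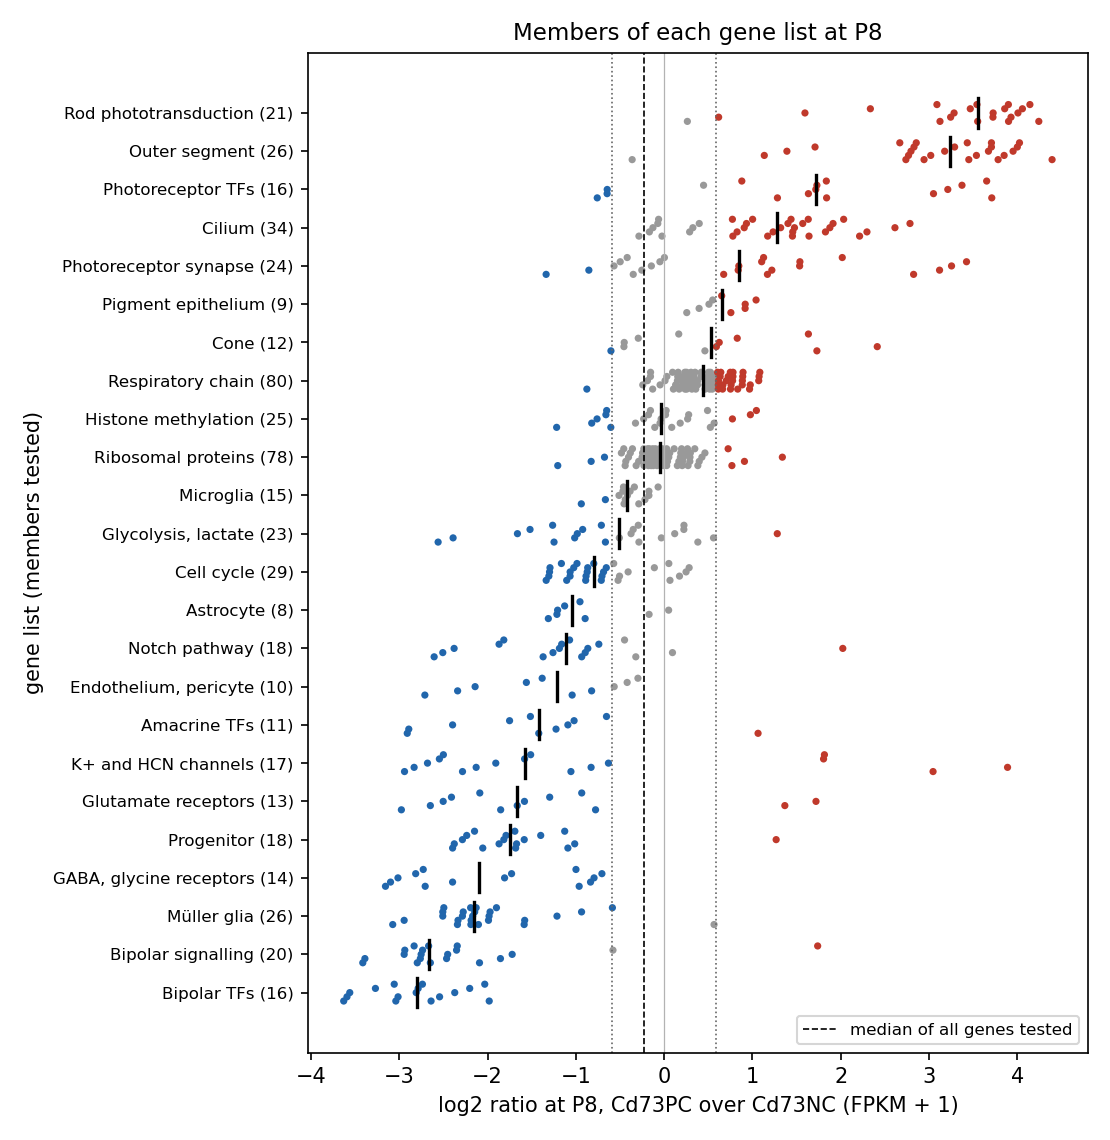
Log2 ratio of Cd73PC over Cd73NC on FPKM + 1 at P8 for each member (point) of 24 gene lists, 1 library a fraction; red points passed 1.5-fold towards Cd73PC, blue towards Cd73NC, grey neither, black bars are list medians, and TF means transcription factor. Medians ran from 3.55 for rod phototransduction to -2.80 for bipolar transcription factors, and the dashed line marks the median of all genes tested, -0.23.

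Bipolar transcription factor genes were the mirror image: all 16 of the list were higher in Cd73NC, beside 31.3% of all genes, with a median log2 ratio of -2.80. Lhx3 (chr2:26055732-26062076, minus strand) had the largest ratio of the list, at 5.13 FPKM in Cd73PC and 74.8 FPKM in Cd73NC (-3.63). Vsx1, of cone bipolar subtypes (chr2:150506440-150514873, minus strand), was at 11.7 and 153 FPKM (-3.59), and Irx6, of an OFF subtype, at 3.76 and 55.1 FPKM (-3.56). Bhlhe23, needed for rod bipolar cells, was at 15.4 and 134 FPKM (-3.04), and Neurod4, active in bipolar genesis, at 86.5 and 544 FPKM (-2.64). Factors of OFF, ON, and rod bipolar cells were thus all far higher in Cd73NC.

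Of 20 bipolar signalling genes, 18 were higher in Cd73NC and 1 in Cd73PC, with a median log2 ratio of -2.66. ON bipolar cells read glutamate with the receptor Grm6, which holds the channel Trpm1 closed through the G protein Gnao1. Grm6 (chr11:50664187-50679710, plus strand) was at 14.3 and 162 FPKM (-3.41), Gnao1 at 49.8 and 337 FPKM (-2.74), and Trpm1 at 13.8 and 74.0 FPKM (-2.34). Genes of the complex around them were also higher in Cd73NC: Gpr179 was at 9.24 and 77.4 FPKM, Nyx at 2.47 and 22.4 FPKM, Rgs11 at 2.03 and 20.003 FPKM, Gng13 at 22.2 and 146 FPKM, and Rgs7 at 0.664 and 5.01 FPKM (-1.85). Prkca, the usual rod bipolar marker, was at 11.96 and 41.7 FPKM (-1.72), a smaller ratio than that of the receptor. The calcium-binding proteins of cone bipolar cells Scgn (19.6 and 214 FPKM) and Cabp5 (22.9 and 183 FPKM) were also far higher in Cd73NC. The exception was Lrit3, a leucine-rich repeat protein that photoreceptors make for the ON bipolar synapse, at 18.4 and 4.802 FPKM (1.74).

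Transmitter receptors and channels sorted with the bipolar genes. All 14 GABA and glycine receptor genes at or above 1 FPKM (of 22 in the tables) were higher in Cd73NC, with a median log2 ratio of -2.10. The GABA-C receptor subunit Gabrr1, of bipolar terminals, was at 18.2 and 170 FPKM (-3.16). Of 13 glutamate receptor genes (of 24 in the tables), 11 were higher in Cd73NC, led by Grid1 at 1.70 and 20.2 FPKM (-2.98), and Grik1, the kainate receptor of OFF bipolar cells, was at 6.74 and 47.5 FPKM (-2.65). Grik3 (17.5 and 4.63 FPKM) and Grm7 (15.1 and 5.25 FPKM) went the other way. After quantile normalization, 11 of 13 GABA and glycine receptor genes then at or above 1 FPKM were higher in Cd73NC and 1 in Cd73PC, and 9 of 11 glutamate receptor genes were higher in Cd73NC.

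Potassium and HCN channel genes were divided between the fractions. Of 17 genes at or above 1 FPKM (of 22), 13 were higher in Cd73NC and 4 in Cd73PC, beside 31.3% and 13.0% of all genes. Among the 4 were Kcnv2, a silent channel subunit of the photoreceptor inner segment (188 and 11.8 FPKM, 3.89), and Kcnj14 (8.22 and 1.64 FPKM, 1.81). Hcn3 (4.84 and 43.8 FPKM, -2.94) and Hcn4 (1.13 and 14.2 FPKM, -2.83), of bipolar cells, were higher in Cd73NC, as was Kcnma1 (4.47 and 34.0 FPKM, -2.68). Hcn2 was at 2.23 and 4.004 FPKM (-0.63), a call that ended when the median ratio was set to 1.

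Of 26 Müller glia genes, 25 were higher in Cd73NC and none in Cd73PC, with a median log2 ratio of -2.16. Dkk3 was at 25.1 and 200 FPKM (-2.94), Gpr37 at 13.3 and 119 FPKM (-3.07), the glutamate transporter Slc1a3 at 21.0 and 124 FPKM (-2.51), and the retinaldehyde-binding protein Rlbp1 at 39.1 and 193 FPKM (-2.28). Glutamine synthetase, Glul, was at 54.6 and 165 FPKM (-1.58), and Apoe at 179 and 540 FPKM (-1.58). Clu was the only member with a ratio above 0, at 69.0 and 46.3 FPKM (0.57), and it was called for Cd73PC after each of the 3 scalings tried on the lists. Müller genes thus had smaller ratios than bipolar transcription factors.

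Genes of progenitors and of the cell cycle leaned to Cd73NC. Of 18 progenitor genes (of 20 in the tables), 17 were higher in Cd73NC, beside 31.3% of all genes. Ccnd1, which drives progenitor division, was at 9.31 FPKM in Cd73PC and 41.8 FPKM in Cd73NC (-2.05) and Hes5, a Notch effector, at 7.70 and 30.8 FPKM (-1.87). Rax, an eye field gene that photoreceptors also use, was the exception, at 198 and 81.5 FPKM (1.27). Of 29 cell cycle genes (of 34), 19 were higher in Cd73NC, and the median level over all 34 was 0.829 FPKM in Cd73PC and 1.93 FPKM in Cd73NC. Mki67 was at 0.460 and 2.27 FPKM and Top2a at 0.645 and 2.44 FPKM, but the helicase subunit Mcm7 was at 10.7 and 27.8 FPKM (-1.30) and Pcna, the sliding clamp of replication, at 51.9 and 45.9 FPKM. After quantile normalization 5 of 27 cell cycle genes were higher in Cd73NC and 3 in Cd73PC, beside 2647 and 2601 genes in all. The lean of this list thus depended on the scaling. Of 18 Notch pathway genes, 14 were higher in Cd73NC, such as the ligand Dll1 (2.17 and 10.2 FPKM), the modulator Lfng (1.86 and 16.4 FPKM), and the receptor Notch1 (12.7 and 23.9 FPKM), while the ligand Jag1 was at 7.52 and 1.10 FPKM (2.02) in favour of Cd73PC.

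The early-born inner neurons left weaker marks. Of 19 amacrine transcription factor genes, 11 reached 1 FPKM and 10 of them were higher in Cd73NC, with Prox1 at 21.2 and 166 FPKM (-2.91), which horizontal cells and some bipolar cells share, and Pax6 at 4.45 and 27.7 FPKM (-2.40). Of 21 inhibitory transmitter genes, only 7 reached 1 FPKM. The GABA-synthesising Gad2 was at 0.436 and 1.54 FPKM. The glycine transporter Slc6a9 (chr4:117507863-117541910, plus strand), a marker of glycinergic amacrine cells, was the other way, at 50.7 and 10.4 FPKM (2.18). Of 21 ganglion cell genes, 6 reached 1 FPKM, among them Gap43 at 1.43 and 11.1 FPKM and, against it, the neurofilament gene Nefh at 7.92 and 1.14 FPKM (2.06). Meis2 of the amacrine list was at 17.4 and 7.82 FPKM (1.06). Of 10 horizontal cell genes, 4 reached 1 FPKM and 3 of these were higher in Cd73NC, including Tpm3 at 10.3 and 40.4 FPKM. Most ganglion cell and inhibitory transmitter genes were thus below 1 FPKM, and those above it did not share a direction.

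Genes of cells other than retinal neurons and Müller glia were measured in both fractions. Hba-a1, an α-globin gene summed over its 2 loci, was at 1994 FPKM in Cd73PC and 5073 FPKM in Cd73NC (-1.35), the most abundant gene of the latter, and Hbb-b1 was at 71.0 and 72.1 FPKM; the globin genes are near copies of each other, so their separate values are uncertain. Of 5 erythroid genes at or above 1 FPKM, 4 were higher in Cd73NC. For this and the next lists, the shares over all genes were 31.3% towards Cd73NC and 13.0% towards Cd73PC. Of 10 endothelial and pericyte genes (of 18), 7 were higher in Cd73NC, led by Kdr, which retinal progenitors also express, at 9.47 and 67.5 FPKM and the pericyte gene Rgs5 at 2.11 and 14.7 FPKM. All 15 microglial genes at or above 1 FPKM were within 1.5-fold except Fcer1g (3.09 and 6.84 FPKM) and Aif1 (2.02 and 3.78 FPKM), neither of which passed after quantile normalization, and the list summed to 269 FPKM in Cd73PC and 351 FPKM in Cd73NC. Pigment epithelium genes leaned to Cd73PC, with 5 of 9 past the fold, such as Dct at 20.4 and 9.39 FPKM and Pmel at 41.3 and 21.4 FPKM; the list summed to 145 and 80.4 FPKM, and Rpe65 was at 4.26 and 2.59 FPKM. All 5 lens genes and 5 of 7 stromal genes at or above 1 FPKM were higher in Cd73NC. The lists summed to 8.58 and 37.2 FPKM and to 71.1 and 239 FPKM, respectively. Cryab (6.16 and 27.7 FPKM) made up most of the lens sums, and Sparc (64.8 and 214 FPKM) most of the stromal sums. Astrocyte genes summed to 118 and 186 FPKM, most of it from Slc1a2 (65.9 and 63.6 FPKM) and Igf2 (39.2 and 92.3 FPKM). Gfap was at 2.04 and 4.88 FPKM and Pax2 at 0.591 and 1.96 FPKM. These sums thus rest mainly on 1 or 2 genes of each list and do not measure the amount of a cell type. The part of these cells in the differences given above was not tested.

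Energy metabolism differed between gene groups. Of 80 respiratory chain and ATP synthase genes at or above 1 FPKM, 26 were higher in Cd73PC, beside 13.0% of all genes. In Cd73NC 1 was higher, the testis-type subunit Cox6b2, beside 31.3% of all genes. The spread was narrow around a median log2 ratio of 0.44, and 47 were higher in Cd73PC when the median ratio was set to 1. Ndufa4 (log2 ratio 1.08) led the list. Of 23 glycolysis and lactate genes, 11 were higher in Cd73NC, beside 31.3% of all genes, and 1 in Cd73PC (9 and 3 when the median ratio was set to 1). The 1 was Ldha, which makes lactate from pyruvate, at 1643 and 675 FPKM (1.28). Tpi1 was at 181 and 575 FPKM (-1.66), and Pgk1 at 188 and 454 FPKM (-1.26), while Pkm2 was near level at 1403 and 1291 FPKM. The lactate exporter Slc16a3 was at 15.3 and 84.4 FPKM (-2.39) and the neuronal glucose carrier Slc2a3 at 1.88 and 15.9 FPKM (-2.56), whereas Slc2a1 was at 167 and 142 FPKM. Most glycolytic enzyme genes have processed pseudogenes that could take reads of 36 bases, so these values carry that uncertainty. Of 78 ribosomal protein genes, 4 were higher in Cd73PC and 3 in Cd73NC, and their median log2 ratio was -0.05 (9 and 1 when the median ratio was set to 1).

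Of 25 genes of Polycomb and histone methylation, 16 passed the fold in neither direction, beside 6879 of all 12365 genes. In this list 3 were higher in Cd73PC and 6 in Cd73NC, beside 13.0% and 31.3% of all genes. The counts were 6 and 1 when the median ratio was set to 1, so no direction of the list held over scalings. Ezh2, the H3K27 methyltransferase, was at 13.3 and 32.3 FPKM (-1.22) and remained higher in Cd73NC under that scaling. Jarid2, a partner of the same complex, was higher in Cd73PC at 63.9 and 30.5 FPKM (1.04), as were Eed (19.0 and 10.7 FPKM) and Cbx8 (22.7 and 11.02 FPKM). The demethylase Kdm6b was at 31.3 and 56.1 FPKM (-0.82), and Suz12 was level at 35.3 and 34.7 FPKM. Subunits of one complex, Ezh2 on one side and Eed and Jarid2 on the other, thus differed in direction.

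Rod nuclei of the mouse are inverted, with heterochromatin at the centre, and lose lamin A/C. The state of the nuclei at P8 was not examined. Of 17 genes of nuclear architecture, 3 were higher in Cd73PC and 5 in Cd73NC, beside 13.0% and 31.3% of all genes. The other 9 passed the fold in neither direction, among them Lmnb1 (0.21), Lmnb2 (-0.39), and Cbx3 (-0.41). Lmna was at 1.33 FPKM in Cd73PC and 4.62 FPKM in Cd73NC (-1.27), Sun2 at 7.68 and 25.5 FPKM (-1.61), and Cbx5, heterochromatin protein HP1α, at 5.62 and 20.8 FPKM (-1.72). The lamin B receptor Lbr was at 10.8 and 7.5997 FPKM, within the fold. The linker histone gene Hist1h1c was at 180 and 21.7 FPKM (2.99), and Sun1 at 38.9 and 16.2 FPKM (1.21). Immediate early and stress genes did not move as a group, with 4 of 15 higher on each side. The shares over all genes were 13.0% towards Cd73PC and 31.3% towards Cd73NC. Fos was at 3.31 and 22.03 FPKM (-2.42) and Egr1 at 15.9 and 34.9 FPKM (-1.08), but Ier3 (chr17:35958658-35959856, plus strand) was at 104 and 11.6 FPKM (3.06), and the near-identical heat shock genes Hspa1a (6.36 and 1.37 FPKM) and Hspa1b (7.28 and 1.66 FPKM) were also higher in Cd73PC.

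The genes with the largest ratios towards Cd73PC were mostly list members. Of the 15 largest towards Cd73PC among genes of at least 10 FPKM, all but Kcnv2 and Nxnl1, a thioredoxin-like protein of photoreceptors at 175 and 10.1 FPKM (3.98), were in the phototransduction or outer segment lists. Those towards Cd73NC included bipolar factors and also genes outside the lists: Cdh8, a cadherin (chr8:101552669-101940357, minus strand), was at 5.49 and 76.4 FPKM (-3.58), Pcdh8 at 2.04 and 26.7 FPKM (-3.19), and the receptor phosphatase Ptprz1 at 4.05 and 44.1 FPKM (-3.16). Also among them were Car10 (11.97 and 123 FPKM), the secretogranin Scg2 (9.67 and 98.4 FPKM), Pcp4l1 (5.09 and 58.6 FPKM), and the GABA transporter Slc6a11 (8.83 and 88.9 FPKM). LOC100302567, a locus of 94 bases, was listed at 0 in Cd73PC and at 46.5 FPKM in Cd73NC, far above its own Cufflinks upper bound of 4.202, and no fold is given for it. The FPKM limit cut at Atf3 (1.0004 and 0.792 FPKM) and Ube2t (0.595 and 1.0013 FPKM) on the inside, and at Hspg2 (0.456 and 0.999 FPKM) and Scn4a (0.998 and 0.559 FPKM) on the outside.

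The level that a marker kept in the opposite fraction was examined for genes past the fold, a choice that limits how large this share can be. Among the 20 rod phototransduction genes past the fold, Cd73NC held a median of 7.42% of the FPKM of Cd73PC, from 5.13% for Pde6b to 65.0% for Gnb5, and the middle of the distribution was tight, with quartiles of 6.24% and 9.21%. Photoreceptor transcription factor genes of at least 10 FPKM were more spread, with a median of 19.01% and quartiles of 8.33% and 27.5% over 10 genes. Among the 16 bipolar transcription factor genes, Cd73PC held a median of 11.5% of the level in Cd73NC, from 6.82% for Irx6 to 24.0% for Sebox. Of the Müller glia genes of at least 10 FPKM (20 genes), Cd73PC held a median of 19.6%, from 11.1% to 66.4%. Over all 1991 genes higher in Cd73NC with at least 10 FPKM there, 1 was below 5% in Cd73PC, which was LOC100302567 at 0, and 55 were below 10%. Of the 1174 such genes of Cd73PC, 1 was below 5% in Cd73NC, which was Rp1 at 4.56%, and 72 were below 10%. The 5th percentile of these shares was 11.2% for the genes higher in Cd73NC and 8.98% for those higher in Cd73PC, so hardly any gene above 10 FPKM was absent from the opposite fraction.

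**Figure D3:**
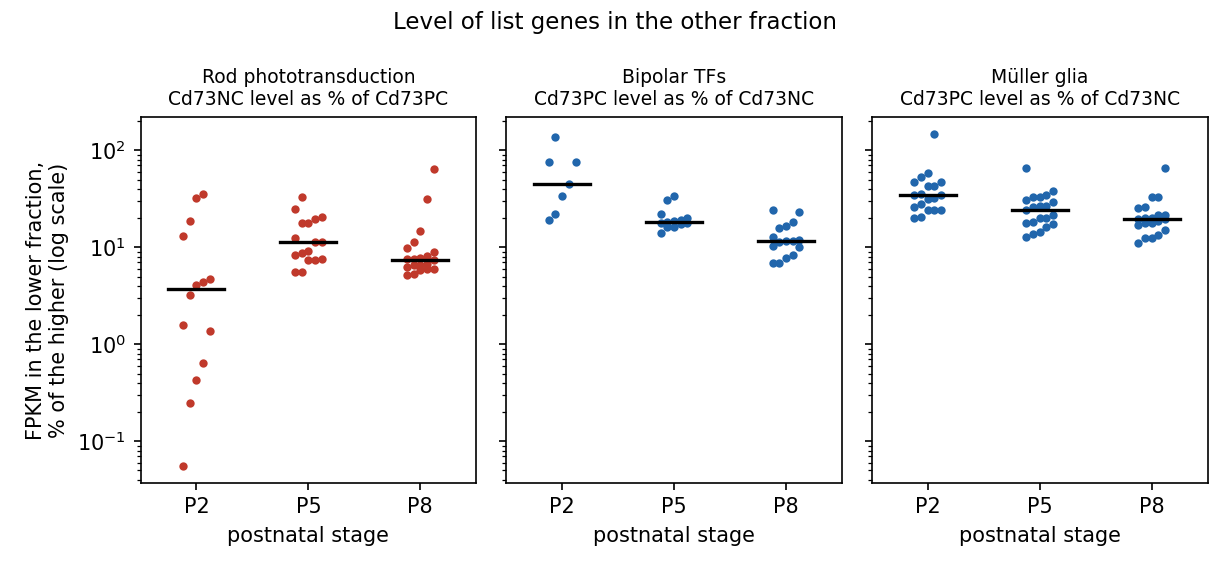
FPKM in the lower fraction as a percentage of the higher fraction (log axis) for rod phototransduction, bipolar transcription factor, and Müller glia genes at P2, P5, and P8; points are genes past 1.5-fold at P8 with at least 10 FPKM in the higher fraction at that stage, bars are medians, and each stage has 1 library a fraction. The rod genes had a median of 7.42% at P8. The bipolar factors had a median of 11.5% over 16 genes at P8 and of 44.7% over 7 genes at P2, so the gene sets differ between stages.

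Against earlier stages, the difference in rod genes was already present at P2. That in bipolar transcription factors was smaller then. Of 12 bipolar signalling genes at or above 1 FPKM at P2, 6 were higher in Cd73PC and 4 in Cd73NC. At P5, 1503 of 12232 genes (12.3%) were higher in Cd73PC and 3298 (27.0%) in Cd73NC, and at P2 1794 (14.5%) and 3082 (25.0%) of 12336. Of the 1612 genes higher in Cd73PC at P8, 1048 were higher in Cd73PC at P5 and 927 at P2, and 762 at all 3 stages. Of the 3874 higher in Cd73NC, 2489 were so at P5 and 1912 at P2, and 1677 at all 3. The opposite direction was rare against P5, with 7 and 42 genes, and more frequent against P2, with 44 and 197. From P2 over P5 to P8, the median log2 ratio of rod phototransduction genes went from 3.16 over 2.80 to 3.55. That of bipolar transcription factors was -0.97, -2.17, and -2.80 at these stages, and that of bipolar signalling genes 0.57, -1.17, and -2.66. Cell cycle genes ran the other way, from -1.59 at P2 and -1.31 at P5 to -0.80 at P8. Their median level was 15.5 FPKM in Cd73PC and 53.7 FPKM in Cd73NC at P2, but 0.829 and 1.93 FPKM at P8. Adding 1 to FPKM understates ratios at such low levels, so how much smaller the difference was at P8 is uncertain.

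The named markers showed these courses. Sag was at 944, 2642, and 4174 FPKM in Cd73PC at P2, P5, and P8, while in Cd73NC it was at 12.9, 221, and 273 FPKM. Nt5e was at 97.3, 131, and 124 FPKM in Cd73PC, and in Cd73NC it was at 2.43, 31.4, and 9.38 FPKM, with its highest value at P5. The rod genes Nrl and Rp1 shared that shape in Cd73NC, where Nrl was at 28.3, 277, and 107 FPKM and Rp1 at 1.46, 28.2, and 21.5 FPKM. The level of the antigen gene in the negative fraction was thus higher at P5 than at P2 or P8.

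The bipolar genes Isl1, Vsx1, and Grm6 were low in both fractions at P2. Isl1 was at 4.79, 26.8, and 294 FPKM in Cd73NC at P2, P5, and P8, and at 0.776, 4.31, and 29.6 FPKM in Cd73PC, after 69.7 and 26.4 FPKM in whole retina at E15 and E18. Vsx1 was at 0.00119, 9.28, and 153 FPKM in Cd73NC and at 0.0122, 1.06, and 11.7 FPKM in Cd73PC. Grm6 was listed at 0 in Cd73NC at P2, then at 6.58 and 162 FPKM, and in Cd73PC at 0.0198, 0.761, and 14.3 FPKM. From P2 to P8 these 3 genes were thus higher at each later stage in both fractions, with log2 ratios at P8 of -3.27 for Isl1, -3.59 for Vsx1, and -3.41 for Grm6.

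**Figure D4:**
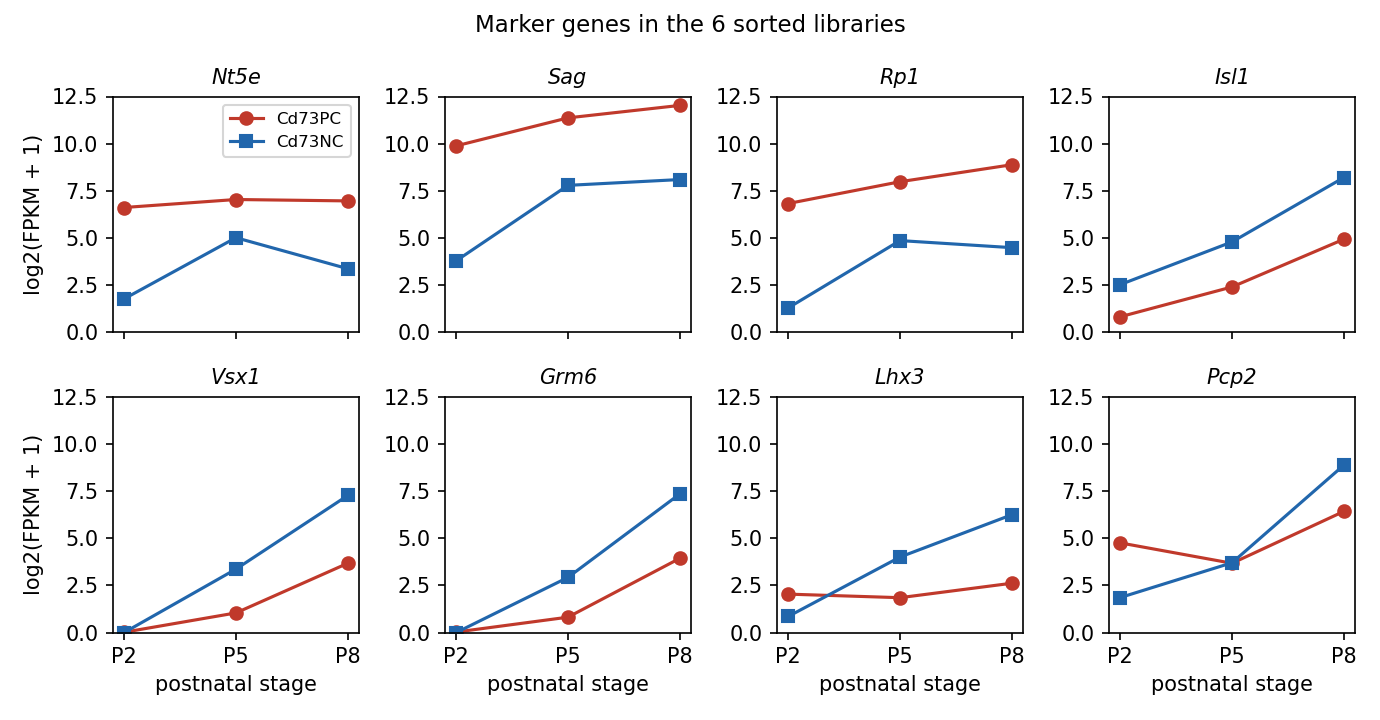
Level of 8 genes as log2(FPKM + 1) at P2, P5, and P8 in Cd73PC (red circles) and Cd73NC (blue squares), 1 library per point. Nt5e, Sag, and Rp1 are above in Cd73PC at each stage, Isl1 is above in Cd73NC at each stage, Vsx1 and Grm6 begin near 0 at P2, and the lines of Lhx3 and Pcp2 cross.

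Some genes of the negative side had been higher in Cd73PC at P2. Pcp2 was at 25.9 FPKM in Cd73PC and 2.62 FPKM in Cd73NC at P2 (log2 ratio 2.90), at 11.8 and 11.99 FPKM at P5, and at 84.7 and 468 FPKM at P8 (-2.45). Gng13, the G-protein γ subunit of ON bipolar cells, was at 23.3 and 0.995 FPKM at P2 (3.61), 10.2 and 5.41 FPKM at P5 (0.81), and 22.2 and 146 FPKM at P8 (-2.67). Both genes thus crossed while their level in Cd73PC at P8 was within 4-fold of that at P2. Lhx3 was at 3.11 and 0.808 FPKM at P2 (1.18), 2.60 and 15.0 FPKM at P5 (-2.15), and 5.13 and 74.8 FPKM at P8. Otx2 was at 777 and 349 FPKM at P2 (1.15), 492 and 851 FPKM at P5 (-0.79), and 353 and 552 FPKM at P8 (-0.64), so that in Cd73PC it was lower at each later stage. Gnb3 was at 208 and 35.1 FPKM at P2, 236 and 139 FPKM at P5, and 255 and 388 FPKM at P8, where its level in Cd73NC was higher at each later stage.

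Lists of other cell types stood differently at P2 than at P8. All 14 microglial genes at or above 1 FPKM at P2 were higher in Cd73PC, beside 14.5% of all genes at that stage, with a median log2 ratio of 1.796, against 0 of 15 and -0.42 at P8. Astrocyte genes gave 7 of 7 at P2 (median 2.11) and 0 of 8 at P8 (-1.04), and pigment epithelium genes 8 of 8 (2.80) and 5 of 9 (0.65). Pmel was at 37.4 FPKM in Cd73PC and 0.325 FPKM in Cd73NC at P2, and at 41.3 and 21.4 FPKM at P8. Pdgfra, of astrocytes in the retina, was at 15.4 and 2.22 FPKM at P2 and at 4.42 and 12.4 FPKM at P8. Igf2 was at 165 and 7.92 FPKM at P2 and at 39.2 and 92.3 FPKM at P8. The part of these cells in the crossings of single genes was not tested.

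**Figure D5:**
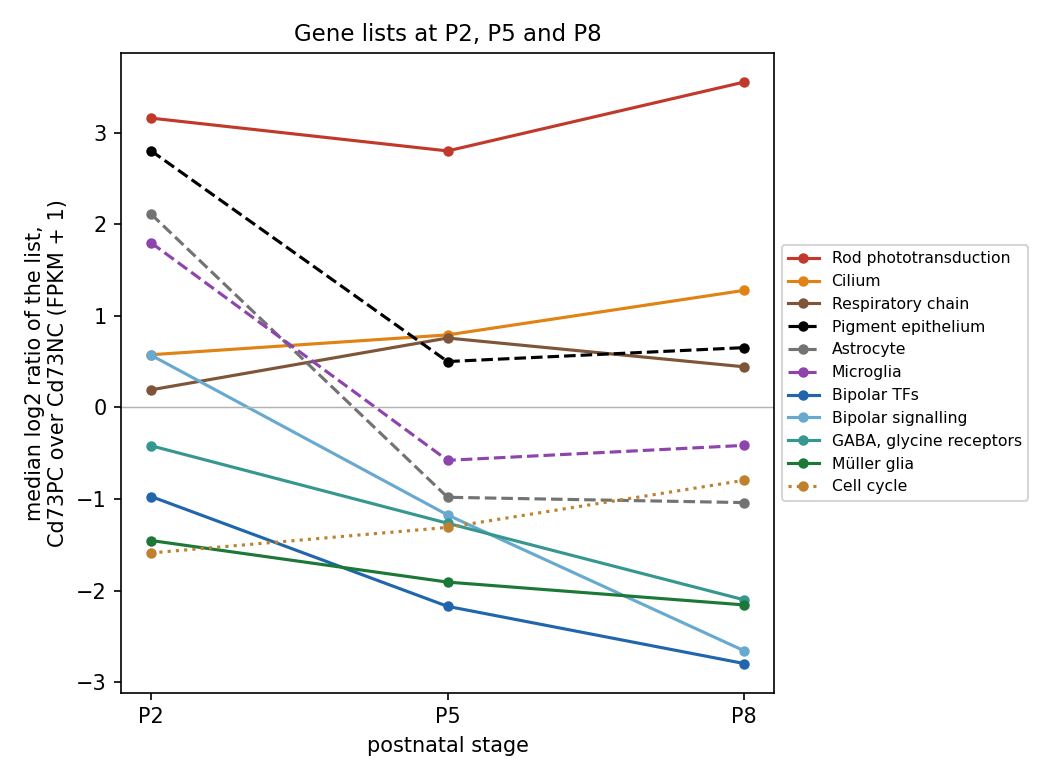
Median log2 ratio of Cd73PC over Cd73NC on FPKM + 1 for 11 gene lists at P2, P5, and P8, 1 library a fraction at each stage; members at or above 1 FPKM in a fraction of that stage enter each median. Rod phototransduction lies between 2.80 and 3.55 throughout, bipolar signalling goes from 0.57 to -2.66, and the microglial, astrocyte, and pigment epithelium medians are above 1.5 only at P2 among these stages.

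A set of genes passed the fold at P8 and not before. Past 2-fold at P8, with at least 10 FPKM in the higher fraction and within 1.5-fold at both P2 and P5, were 53 genes higher in Cd73PC and 157 higher in Cd73NC. Of all 12365 genes, 888 (7.18%) and 2363 (19.1%) passed 2-fold at P8 in these directions. The set was thus split between the fractions much as all such calls were. Towards Cd73PC, Fam160a1 was at 10.02 and 1.35 FPKM at P8 (2.23) after 1.54 and 1.34 FPKM at P5, and Cadm1, an adhesion molecule, at 210 and 59.2 FPKM (1.81) after 126 and 85.3 FPKM. Acadvl, which starts the oxidation of very long fatty acids, was at 47.7 and 14.05 FPKM (1.69) after 34.7 and 25.9 FPKM. Of list members, Rax, Ift57, Crb1, Sun1, and Meis2 belonged to this set. Towards Cd73NC, Ly6h, a modulator of nicotinic receptors, led with 5.74 and 57.9 FPKM (-3.13) after 1.70 and 1.91 FPKM at P5. Rgs11 (2.03 and 20.003 FPKM at P8, 0.789 and 0.926 FPKM at P5), Gnao1 (49.8 and 337 FPKM, 27.4 and 41.4 FPKM), and Gabrr2 (1.63 and 12.8 FPKM, 0.458 and 0.196 FPKM) of the bipolar and receptor lists were in it, as was Prkca. Gnao1 stood only just within the fold at P5 (-0.58), whereas Grm6 had passed it by then (-2.11); differences between stages were not tested.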

How the data were processed

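RNA of 8 samples was sequenced with 1 library each. According to the study's methods and the submitters' processing notes, poly(A) RNA was read as single ends of 36 bases (CASAVA 1.8.2, bcl2fastq 1.8.4), aligned to mm9 with TopHat2 2.0.8b, which kept reads with up to 50 placements, and quantified with Cufflinks 2.1.1. The authors deposited FPKM values with lower and upper bounds and a status per row. FPKM is scaled to the library total, so a few abundant genes can shift all others. The absolute depth is unknown, and the spacing of low values gave Cd73PC at P8 0.841 of the depth of Cd73NC at P8. FPKM lay above its own upper bound in 1691 rows of Cd73PC and 2021 of Cd73NC.

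From 23021 rows, 794 rows of small RNAs were left out, rows of 1 symbol were summed, and 10 genes with a failed estimate in a P8 library were missing. Ratios are log2 of (FPKM + 1) in Cd73PC over Cd73NC, which understates the change of low genes. Genes with at least 1 FPKM in either library were compared, a gene past 1.5-fold was called higher, and with 1 library per group no test was run. The counting step was tested on simulated data. Alternatives were other pseudocounts, filters, folds, and scalings, kept rows and small RNAs, failed rows as 0, and 2 rules on the Cufflinks bounds. Start coordinates were increased by 1. Of 21187 genes compared with an NCBIM37 annotation, 21112 overlapped. Promoters came from RefSeq (GRCm38.p6) and were not mixed with mm9 positions.

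Named genes were the 4 markers, the 15 largest ratios in each direction, the 10 most abundant genes per library, the abundant, largest, and opposite members of each of 33 lists, genes opposite at P5, and genes at the FPKM limit; other list members were added as examples after their values were seen. Members and lists were chosen with earlier results of these data known. Python 3.11.15, pandas 2.3.3, and matplotlib 3.10.9 were used. Some genes and their results are not reported here.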

Additional observations from a re-analysis of the deposited data

Results flagged for a closer look

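The following genes passed 1.5-fold in opposite directions at P8 and at an earlier stage. Each direction rests on 1 library a side, so the difference between stages was not tested. Log2 ratios are of Cd73PC over Cd73NC on FPKM + 1.

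Genes higher in Cd73NC at P8 and in Cd73PC at P2 were the most frequent kind. Among bipolar genes, Pcp2 was at -2.45 at P8 and 2.90 at P2, and Lhx3 at -3.63 and 1.18. Sebox, a homeobox gene of the bipolar list, was at -1.98 at P8, 1.05 at P5, and 0.82 at P2. Photoreceptor and synapse genes in this group were Otx2 (-0.64 at P8 and 1.15 at P2), Gnb3 (-0.60 at P8, 0.76 at P5, and 2.53 at P2), and Cplx3 (-0.85 at P8 and 1.79 at P2). The corepressors Tle2 and Tle6 behaved alike, with Tle2 at -1.15 at P8, 1.52 at P5, and 2.03 at P2 and Tle6 at -1.99, 0.98, and 1.78. The phosphatase Dusp26 was at -0.78, 1.47, and 1.598.

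Genes of other cell types and of early response also crossed. The microglial gene Fcer1g was at -0.94 at P8 and 1.39 at P2, the astrocyte gene Pdgfra at -1.31 and 2.34, Igf2 at -1.21 and 4.22, and the chaperone crystallin Cryab at -2.005 and 1.0007. Fos was at -2.42 and 0.80, and the adenosine receptor Adora1 at -0.97 and 1.19. Some ratios at P2 rest on levels near the limit of 1 FPKM. In Cd73PC and Cd73NC at P2, Cryab was at 1.001 and 0 FPKM, and Fcer1g at 1.62 and 0 FPKM. Adora1 was at 1.47 and 0.0843 FPKM there, and Sebox, named above, at 1.02 and 0.145 FPKM. Pisd-ps3, a pseudogene, was at -1.07 at P8 and 2.37 at P5.

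Fewer genes were higher in Cd73PC at P8 and in Cd73NC at an earlier stage. Fabp7, a fatty acid carrier of radial glia, was at 0.69 at P8 and -0.82 at P5, but at 1.05 at P2, towards Cd73PC. Fam100b was at 0.95 at P8, -1.04 at P5, and 0.01 at P2, and Aff1 at 0.68, -0.63, and 0.32. Zfp36l2, which destabilises mRNA, was at 0.78 at P8, -0.72 at P5, and -1.41 at P2. The calls of Otx2, Gnb3, and Dusp26 at P8 ended when the median ratio was set to 1.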

How the results depend on the processing

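No alternative reversed the direction of a named gene or list that had been called. A 2-fold threshold left 888 genes higher in Cd73PC and 2363 in Cd73NC, and quantile normalization raised the count in Cd73PC to 2601. Every other count stayed within 1.5 times of 1612 and 3874, among them 1591 and 3808 where the Cufflinks bounds did not overlap and 1599 and 3821 from the midpoint of the bounds, a setting chosen after seeing the data. The share of calls on the Cd73PC side was 29.4%, and 37.2%, 42.8%, and 49.6% under upper-quartile, median-ratio, and quantile scaling. Of the log2 ratios of named genes, 12 moved by more than 1.5-fold at a pseudocount of 0.1 and 16 at 0, such as Rims1, whose ratio of -1.34 became -3.10 at 0. Of the 33 list medians, 7 and 9 moved by as much under these pseudocounts, 9 with no filter, 6 with a filter of 5 FPKM, and 0 under any scaling. Both fractions of a stage came from the same retinas, but with 1 library per condition each stage had only 1 pair. No paired test was therefore possible, and no replicate could be left out. With 1 library per fraction, sorting and library preparation cannot be told apart from a difference between the fractions.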
